A study of Mus musculus with 6 samples.

Results

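The DLK/LZK to JNK cascade is described here through 10 genes taken by name from the 55335 genes of the deposited count table. They are Map3k12 (DLK) and Map3k13 (LZK), the MAP kinase kinase genes Map2k4 (MKK4) and Map2k7 (MKK7), the JNK genes Mapk8, Mapk9 and Mapk10 (JNK1, JNK2 and JNK3), and the scaffold genes Mapk8ip1, Mapk8ip2 and Mapk8ip3 (JIP1, JIP2 and JIP3). The list is one of names, with no threshold on a measured value, and it was chosen with earlier results of these data known. RNA was sequenced from mouse retina after an anti-HA antibody and Protein G beads had been used to pull down tagged material, and the cell type is labelled as retinal ganglion cells (RGCs), whose axons leave the eye as the optic nerve. There were 3 naive libraries and 3 SOHU libraries, all from C57BL/6 mice aged 10 weeks with a wild type genotype. SOHU is the label's name for a mouse model of ocular hypertension made with silicone oil, injected in the anterior chamber 1 week before the retinas were taken. The protein that carries the HA tag, the cells that make it and the number of animals behind a library are not given in the sources read here. The p-values therefore speak of the spread among these 6 libraries, part or all of which may be technical.

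DLK and LZK are related kinases that respond to axon injury and to disturbance of the cytoskeleton. They phosphorylate MKK4 and MKK7, which in turn phosphorylate the JNKs on a threonine and a tyrosine in the activation loop, and JIP scaffold proteins hold the kinases together and link them to motor proteins on microtubules. In retinal ganglion cells this pathway is known for carrying the injury signal from the axon to the nucleus, where c-Jun and other transcription factors are phosphorylated. The pathway acts mostly through phosphorylation, which RNA counts do not measure.

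The activation loop is shown first because it is the point at which the cascade converges on the 3 JNK genes. Its letters differ between these genes, and whether reads were told apart by them was not tested. Each run is 63 bases of coding sequence from GENCODE M21 on GRCm38 (the build also called mm10), read 5′ to 3′ on the strand of the gene, and capitals mark the codons of Thr-Pro-Tyr, the residues that MKK4 and MKK7 act on. They lie at chr14:33392976-33393038 on the minus strand (Mapk8), chr11:49872803-49872865 on the plus strand (Mapk9) and chr5:102989654-102989716 on the minus strand (Mapk10), each inside 1 exon.
Mapk8: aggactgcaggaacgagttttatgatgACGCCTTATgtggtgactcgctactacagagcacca
Mapk9: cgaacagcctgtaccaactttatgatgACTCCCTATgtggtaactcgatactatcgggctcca
Mapk10: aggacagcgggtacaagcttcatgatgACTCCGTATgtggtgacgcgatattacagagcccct
Over these 63 bases Mapk8 and Mapk9 differed at 17, Mapk8 and Mapk10 at 13, and Mapk9 and Mapk10 at 16, although the 3 loops spell the same motif. Over whole annotated transcripts, 0 of the 50-base words of any of the 10 genes occurred in another of the 10.

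The 6 libraries held 21691354 to 26824919 counted reads, and 17687 genes passed the filter on low counts, all 10 genes of the cascade among them. Retinal ganglion cell markers were present in every library. In SOHU 20 of 22 were called lower (edgeR adjusted p under 0.05), beside 5.93% of all genes. Of these markers 21 had a log2 fold change below 0, and their median was -1.06. Their summed share of the reads was 0.481 to 0.752% in naive and 0.232 to 0.337% in SOHU. Of 15 markers of Müller glia and astrocytes 11 were called higher (Kcnj10 by 1.30 and Sox9 by 1.14 in log2), beside 8.02% of all genes. In this list 0 markers had a log2 fold change below 0, and the summed share was 1.52 to 2.07% in naive and 2.96 to 5.31% in SOHU. None of the markers listed was at 0 in all libraries. In RNA from a mixture of cells, fewer or more cells of a type cannot be told apart from less or more RNA per cell. This holds for every change below, in ganglion cells or in other cells that carry the RNA. The part of the pull-down's yield in these changes was not tested.

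RNA of 4 of the 10 cascade genes fell in SOHU, those of the scaffolds Mapk8ip2 and Mapk8ip3, the JNK gene Mapk10 and the kinase gene Map2k7, and the other 6 genes were not called in either direction (edgeR quasi-likelihood test, Benjamini-Hochberg adjusted p under 0.05 over all genes). Among all genes tested 5.93% were called lower and 8.02% higher. At an unadjusted p under 0.05, 6 of the 10 were lower and 0 higher, beside 14.8% of all genes lower. The same 4 genes were called with DESeq2 size factors in edgeR, with DESeq2, with limma-voom and without the low-count filter, where 6.05, 9.79, 6.77 and 5.24% of all genes were called lower, and none of these settings called a gene of the 10 higher. Leaving out a single library ended all 4 calls in 4 of the 6 omissions and 2 of them in another. The log2 fold change (SOHU minus naive) was below 0 for 10 of the 10, beside 48.9% of all genes, and its median was -0.45, beside 0.014 over all genes tested. These directions were the same with TMM scaling and with DESeq2 size factors, and they reversed when libraries were scaled to the ganglion cell markers, a scaling that took the median of all genes to 1.15 and that of the cascade to 0.67. The cascade's median then lay 0.47 below that of all genes, as it did in the first scaling. A change of scaling moves all genes by nearly the same amount, so this distance is not a second result. The SOHU libraries lay wholly below the naive libraries for 9 of the 10 genes, where 19.7% of all genes were separated in this direction. With 3 libraries against 3, no exact permutation test of a single gene can go below p = 0.1.

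**Figure D1:**
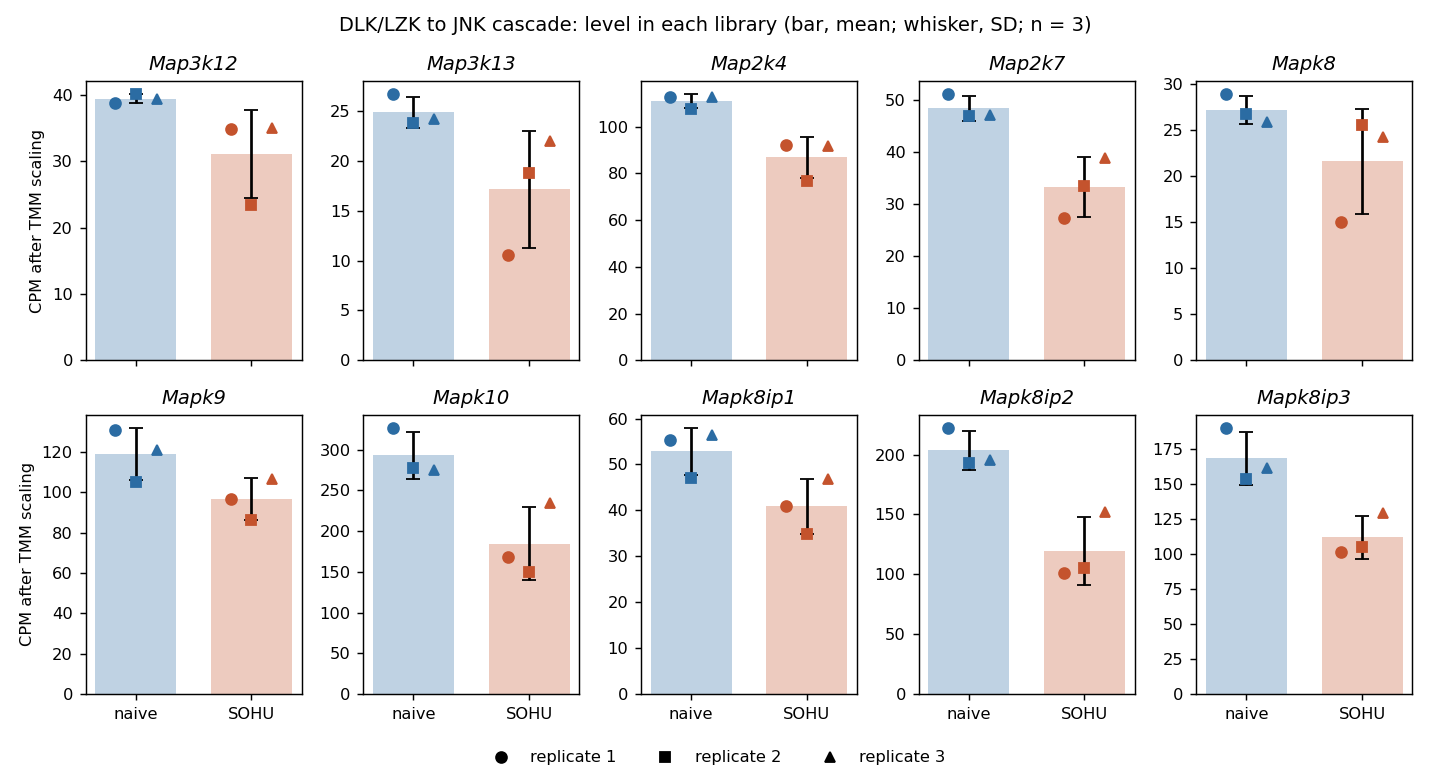
Level of each cascade gene in each library, in CPM after TMM scaling (vertical axes start at 0). Points are libraries, bars are means and whiskers are SDs over 3 libraries; the SOHU points lie below the naive points in 9 of 10 panels, and in the Mapk9 panel the groups overlap. With libraries scaled to ganglion cell markers the direction is the opposite.

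At the top of the cascade, Map3k12 encodes DLK, the kinase best known for starting the response to axon injury. It gave 38.8, 40.1 and 39.4 CPM (a gene's counts relative to the TMM-scaled size of its library) in naive replicates 1 to 3 and 34.9, 23.4 and 35.0 CPM in SOHU replicates 1 to 3. The naive libraries were nearly equal, SOHU replicate 2 was low, and the other SOHU libraries lay just below the naive ones. Its log2 fold change of -0.34 had an SE of 0.18 and a 95% interval of -0.73 to 0.05, and a decrease was not called (edgeR adjusted p = 0.218). Map3k12 lies at chr15:102497646-102517064 on the minus strand of mm10, and 17.5% of its exon bases are also exon of Pcbp2 on the opposite strand. Whether counting used the strand was not stated, so reads in those bases are uncertain.

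Map3k13, the gene of LZK, a close relative that can act beside DLK, gave 26.7, 23.8 and 24.2 CPM in naive and 10.6, 18.8 and 22.0 CPM in SOHU. Here SOHU replicate 1 was the low library, and replicate 3 came close to the naive range without entering it. The log2 fold change of -0.54 (SE 0.24, 95% interval -1.09 to 0.01) was not called (edgeR adjusted p = 0.167). Map3k13 lies at chr16:21794346-21933439 on the plus strand. Of its exon bases 2.6% are also exon of 1300002E11Rik on the same strand, a gene with 270% of its reads per base. The 2 upstream kinases thus had their lowest values in different SOHU libraries, and the log2 ratio of Map3k12 to Map3k13 counts ranged from 0.54 to 0.75 in naive and from 0.32 to 1.72 in SOHU.

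At the next step the 2 MAP kinase kinase genes differed in their calls. MKK4, encoded by Map2k4 (chr11:65688243-65788297, minus strand), activates both JNK and p38 kinases, while MKK7, encoded by Map2k7 (chr8:4238740-4247897, plus strand), acts on JNKs. Map2k4 had 112, 107 and 113 CPM in naive and 92.0, 76.9 and 91.4 CPM in SOHU. All 3 naive libraries were close together and above all SOHU libraries, of which replicate 2 was lowest. Its log2 fold change was -0.35 (SE 0.13, edgeR adjusted p = 0.0902), which did not pass.

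Map2k7 had 51.1, 47.0 and 47.1 CPM in naive and 27.3, 33.5 and 38.9 CPM in SOHU. The groups were apart, and the SOHU libraries were spread, with replicate 1 lowest and replicate 3 highest. Map2k7 fell 1.46-fold (log2 fold change -0.54, SE 0.16, 95% interval -0.89 to -0.19, edgeR adjusted p = 0.0492), which is just inside the threshold, and the call was lost without any one of naive replicates 1, 2 and 3 or SOHU replicates 1 and 2 (adjusted p up to 0.176). The log2 ratio of Map2k7 to Map2k4 inside a library was -1.14, -1.19 and -1.26 in naive and -1.75, -1.20 and -1.23 in SOHU. SOHU replicate 1 alone stood apart in this ratio, and the groups overlapped (exact permutation p = 0.4, two-sided), so these data do not show that the changes of Map2k4 and Map2k7 differ. A predicted gene, Gm49320, shares 35.2% of the exon bases of Map2k7 on the same strand, with 11 reads of its own in all 6 libraries together against 5848 for Map2k7.

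The 3 JNK genes had unequal levels. Mapk10, the JNK gene found mainly in neurons, reached 327, 278 and 275 CPM in naive and 169, 149 and 235 CPM in SOHU. Every SOHU library lay below every naive library, with SOHU replicate 3 nearest to them. Mapk10 fell 1.59-fold (log2 fold change -0.67, SE 0.18, 95% interval -1.07 to -0.27, edgeR adjusted p = 0.0371), a call lost without naive replicate 1, 2 or 3 or SOHU replicate 1 or 2 (adjusted p up to 0.144). Mapk10 lies at chr5:102907948-103211334 on the minus strand, and its exons share no bases with those of another gene of the table.

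Mapk9 encodes JNK2 and lies at chr11:49846751-49886421 on the plus strand. It gave 131, 105 and 121 CPM in naive and 96.8, 86.2 and 107 CPM in SOHU. The groups overlapped, since SOHU replicate 3 (106.9 CPM) was above naive replicate 2 (105.2 CPM). At -0.30 (SE 0.14, 95% interval -0.61 to 0.01), its log2 fold change was not called (edgeR adjusted p = 0.176).

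Mapk8 encodes JNK1 and lies at chr14:33377898-33447158 on the minus strand. It gave 28.9, 26.8 and 25.9 CPM in naive and 15.1, 25.6 and 24.3 CPM in SOHU. SOHU replicate 1 was far below the rest, and the other SOHU libraries were just under the lowest naive one. The log2 fold change of -0.33 (SE 0.21, 95% interval -0.79 to 0.13, edgeR adjusted p = 0.306) had the highest p of the 10.

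Levels of different genes were compared per kilobase of exon. By this measure Mapk10 supplied 57.4, 58.3 and 55.1% of the summed JNK level in naive and 49.3, 47.3 and 54.2% in SOHU. Mapk9 supplied 37.7, 36.2 and 39.8% in naive and 46.4, 44.8 and 40.4% in SOHU, and Mapk8 supplied 4.29 to 7.87% over the 6 libraries. The Mapk10 share was thus lower in all SOHU libraries than in all naive ones, with replicate 3 of each group closest to the other group. The log2 ratio of Mapk10 to Mapk9 counts, which no scaling between libraries can change, was 1.32, 1.40 and 1.18 in naive and 0.80, 0.79 and 1.14 in SOHU. The mean difference was -0.39 without overlap (exact permutation p = 0.1, the smallest possible, two-sided; 0.4 with Benjamini-Hochberg adjustment over the 8 ratios computed). The ratio of Mapk10 to Mapk8 differed by -0.33 with overlap (exact permutation p = 0.3), and that of Mapk9 to Mapk8 by 0.06 (exact permutation p = 0.9).

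The JIP scaffolds held 2 of the 4 calls. Mapk8ip2 encodes JIP2, a scaffold expressed mainly in neurons and endocrine cells, and lies at chr15:89453913-89464468 on the plus strand. It had 222, 193 and 196 CPM in naive and 101, 105 and 152 CPM in SOHU. SOHU replicates 1 and 2 were alike and replicate 3 was higher, still under all naive libraries. Mapk8ip2 fell 1.71-fold (log2 fold change -0.77, SE 0.17, 95% interval -1.16 to -0.38, edgeR adjusted p = 0.0225), the largest change of the 10. The call was lost without naive replicate 1, 2 or 3 or SOHU replicate 2 (edgeR adjusted p up to 0.102). Of the 22 ganglion cell markers, 19 had a log2 fold change below that of Mapk8ip2.

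Mapk8ip3 encodes JIP3, a scaffold that also acts as an adaptor between kinesin, dynein and their cargo in axons, and lies at chr17:24892153-24936977 on the minus strand. It had 189.7, 154 and 161 CPM in naive and 101, 105 and 129 CPM in SOHU. The groups were apart, and the lowest naive library was 154 CPM against 129 CPM for the highest SOHU library. Mapk8ip3 fell 1.51-fold (log2 fold change -0.59, SE 0.15, 95% interval -0.92 to -0.26, edgeR adjusted p = 0.0295). Its call, too, was lost in those 4 omissions (edgeR adjusted p up to 0.131). Of its exon bases, 10.7% are also exon of Eme2 on the same strand and 8.99% of Mrps34 on the opposite strand, so part of its reads is uncertain.

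Mapk8ip1 encodes JIP1, the first described scaffold of this kind, and lies at chr2:92383676-92401263 on the minus strand. Of its exon bases 2.07% are also exon of 1700029I15Rik on the opposite strand. Mapk8ip1 had 55.3, 47.0 and 56.3 CPM in naive and 40.9, 34.9 and 46.9 CPM in SOHU. The groups were barely apart, with naive replicate 2 just above SOHU replicate 3. The change of -0.37 in log2 (SE 0.15, 95% interval -0.72 to -0.02) did not pass (edgeR adjusted p = 0.136). Inside a library, the log2 ratio of Mapk8ip2 to Mapk8ip1 was 2.01, 2.04 and 1.80 in naive and 1.30, 1.59 and 1.70 in SOHU. It differed by -0.42 without overlap (exact permutation p = 0.1, adjusted 0.4). The ratios of Mapk8ip3 to Mapk8ip1 (-0.22) and of Mapk8ip2 to Mapk8ip3 (-0.20) differed with overlap, each with an exact permutation p of 0.2.

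**Figure D2:**
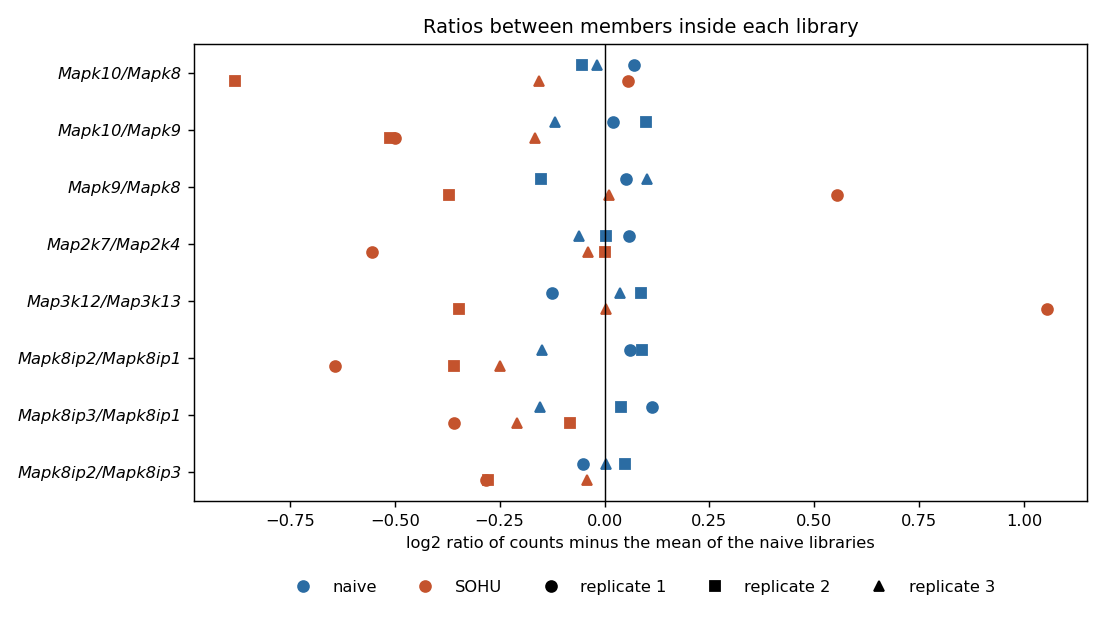
Log2 ratio of the counts of 2 cascade genes inside each library, minus the mean of the naive libraries, for the 8 pairs compared. Blue points are naive and orange points SOHU libraries, with the shape giving the replicate; for Mapk10/Mapk9 and Mapk8ip2/Mapk8ip1 all SOHU points lie left of all naive points, and in the other 6 pairs the groups overlap.

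Leaving out 1 library at a time kept all 10 log2 fold changes below 0 and moved the number of calls. By edgeR no cascade gene was called lower without naive replicate 1, 2 or 3 or without SOHU replicate 2, 2 were called without SOHU replicate 1 (Mapk8ip2 and Mapk8ip3), and 4 without SOHU replicate 3. The share of all genes called lower in these fits was 0.0, 1.44 and 0.0% without naive replicates 1, 2 and 3, and 4.91, 0.254 and 10.2% without SOHU replicates 1, 2 and 3. In the 4 omissions that left no call, the genes lower at an unadjusted p under 0.05 numbered 5, 7, 4 and 4 by edgeR, beside 10.1, 11.2, 11.1 and 11.2% of all genes. Those called lower at an adjusted p under 0.05 numbered 0 by limma-voom in each and 1, 3, 3 and 4 by DESeq2, which called 3.68, 6.29, 5.14 and 5.96% of all genes lower. With naive replicate 1 or 3 left out, edgeR and limma-voom called no gene among all those tested, where DESeq2 called 1772 and 2245, and 3919 and 4251 genes had an unadjusted p under 0.05 by edgeR. The use of the other tools in these omissions was chosen after seeing the data. SOHU replicate 3 was the highest SOHU library for 8 of the 10 genes, naive replicate 1 was the highest naive library for 7, and these libraries also had the highest share of ganglion cell marker reads in their groups (0.337 and 0.752%). The part of this share in the changes of the cascade was not tested.

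**Figure D3:**
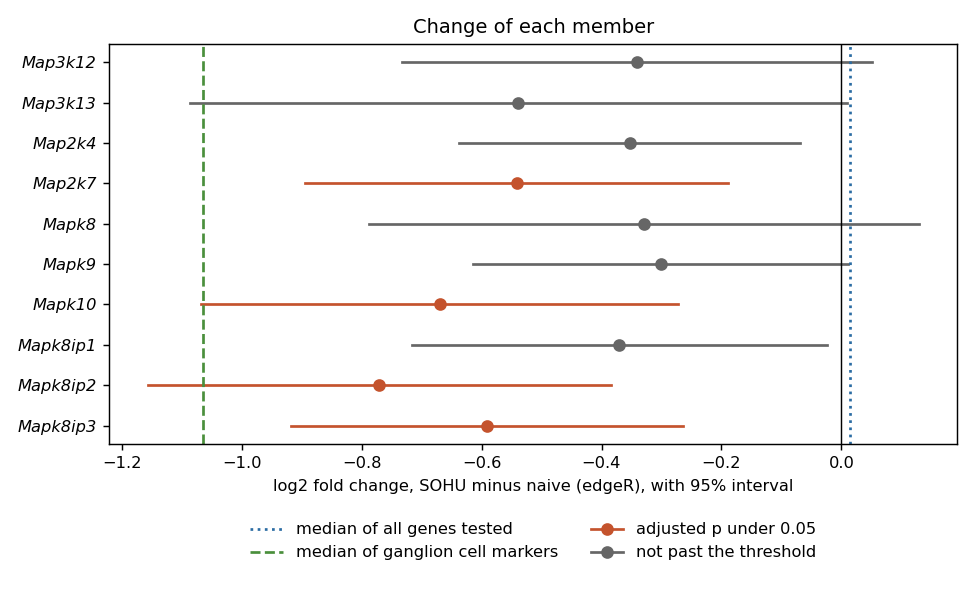
Log2 fold change of each cascade gene (SOHU minus naive, edgeR; points) with its 95% interval (lines). Orange marks the 4 genes with an adjusted p under 0.05; all 10 points lie between the median of the ganglion cell markers (-1.06, dashed) and that of all genes tested (0.014, dotted). Scaled to ganglion cell markers, the 10 values are above 0.

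Setting each gene against the summed ganglion cell marker reads of its own library gave the opposite sign. The log2 ratio was higher in SOHU for 10 of the 10 genes by mean, from 0.36 for Mapk8ip2 to 0.85 for Mapk9, as it was for 97.2% of all genes tested. For Map2k4 the libraries lay at -0.38, 0.25 and 0.12 around the naive mean in naive and at 0.95, 0.85 and 0.58 in SOHU. For Mapk10 they lay at -0.24, 0.22 and 0.01 in naive and at 0.42, 0.41 and 0.54 in SOHU. The groups did not overlap for 8 genes (exact permutation p = 0.1 each, 0.125 adjusted over the 10), beside 78.1% of all genes, and they overlapped for Map3k13 (p = 0.3 by exact permutation) and Mapk8ip2 (p = 0.2 by exact permutation). In the edgeR fit scaled to the same markers 5 of the 10 were called higher (Map3k12, Map2k4, Mapk8, Mapk9 and Mapk8ip1), beside 72.3% of all genes, and none lower, beside 0.0113%. In both scalings, all 10 log2 fold changes were below the median of all genes. The second scaling adds nothing here, because it moves all genes by nearly the same amount.

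**Figure D4:**
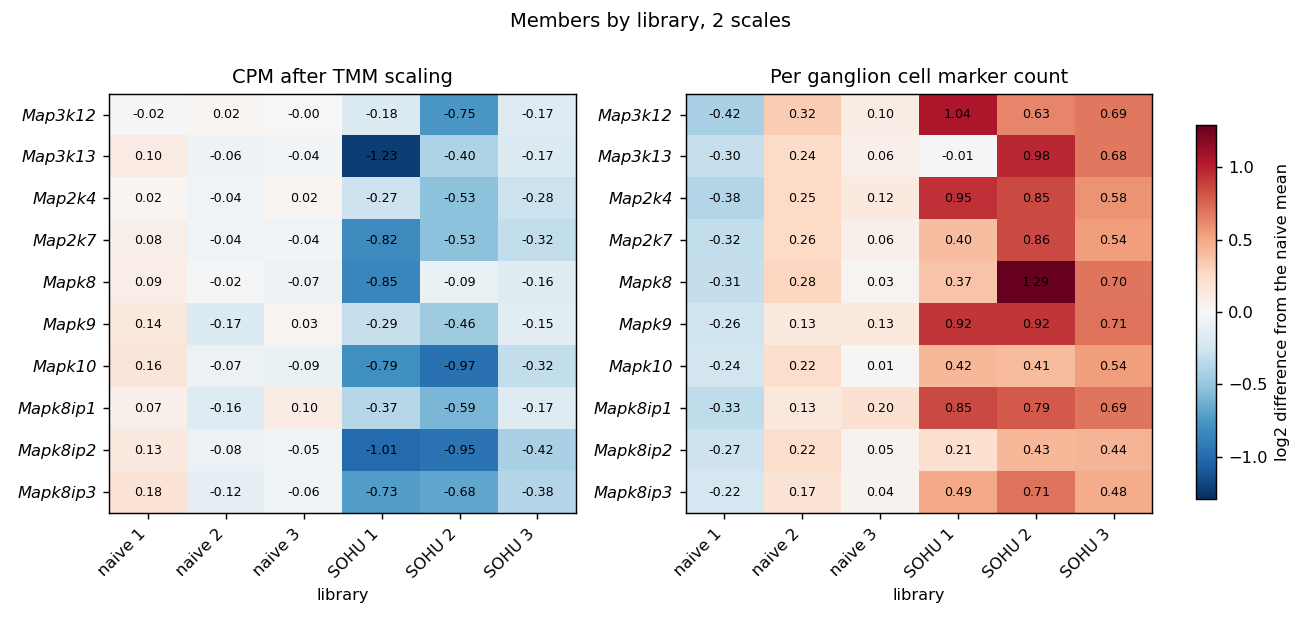
Log2 difference of each cascade gene from its naive mean in each of the 6 libraries, on 2 scales given as colours and numbers (left, CPM after TMM scaling; right, counts per ganglion cell marker count). On the left the SOHU columns are below 0 in every row, and on the right they are above 0 in every row except Map3k13 in SOHU replicate 1 (-0.01).

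The order of the levels, again in CPM per kilobase of exon, began and ended with the same genes in both groups. In naive it ran from Mapk8ip2 (35.7 ± 2.85, SD, n = 3) over Mapk10 (26.4 ± 2.62), Map2k4 (23.8 ± 0.627), Mapk9 (17.6 ± 1.91), Map2k7 (12.6 ± 0.610), Mapk8ip3 (11.5 ± 1.31) and Mapk8ip1 (11.4 ± 1.09) to Map3k12 (4.38 ± 0.0734), Map3k13 (2.86 ± 0.179) and Mapk8 (2.38 ± 0.135). Among neighbours in this order, the ranges of Map2k7 and Mapk8ip3 and those of Mapk8ip3 and Mapk8ip1 overlapped. The upstream kinases DLK and LZK thus had lower levels than both MAP kinase kinases, all 3 scaffolds and 2 of the 3 JNK genes. In SOHU, Mapk8ip2 was still first (20.9 ± 4.99), followed by Map2k4 (18.6 ± 1.84) and Mapk10 (16.6 ± 4.03), but these neighbours overlapped, as did Mapk10 and Mapk9 (14.2 ± 1.52). The last places were again those of Map3k12 (3.46 ± 0.741), Map3k13 (1.97 ± 0.676) and Mapk8 (1.89 ± 0.50), of which Map3k13 and Mapk8 overlapped. Exon length here is the merged length of all annotated exons, so a gene with many unused exons has too low a value. Reads in exon bases shared with another gene may also be left uncounted, while the length includes those bases. Such bases made up 35.2% for Map2k7, 17.5% for Map3k12 (with Pcbp2), and 10.7% (with Eme2) and 8.99% (with Mrps34) for Mapk8ip3. The places of these genes in the order are therefore uncertain.

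Promoter sequence is shown for the 4 genes that were called lower. The 6 genes not called also had log2 fold changes below 0, so direction does not set these 4 apart. Sequences are from RefSeq on GRCm38.p6, which had 14 entries for 9 of the 10 genes (all but Mapk8ip1), and each run is the 250 bases before a start, 5′ to 3′ on the strand of the gene. The search on both strands covered the cyclic AMP response element TGACGTCA, to which c-Jun and ATF2 dimers can bind, and its core TGACG outside that element. It also covered TGANTCA, a pattern like the AP-1 element but with any base in the centre. Capitals mark a match, and a run without capitals had none. The runs are chr5:103211335-103211584 (minus strand, Mapk10), chr17:24936978-24937227 (minus strand, Mapk8ip3), chr15:89453661-89453910 (plus strand, Mapk8ip2) and chr8:4238490-4238739 (plus strand, Map2k7), the first of 2 entries for Mapk10 and Map2k7.
Mapk10: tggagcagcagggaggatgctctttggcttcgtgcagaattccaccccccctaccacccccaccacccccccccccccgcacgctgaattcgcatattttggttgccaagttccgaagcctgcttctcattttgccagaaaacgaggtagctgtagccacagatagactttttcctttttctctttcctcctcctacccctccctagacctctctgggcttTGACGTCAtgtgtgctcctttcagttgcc
Mapk8ip3: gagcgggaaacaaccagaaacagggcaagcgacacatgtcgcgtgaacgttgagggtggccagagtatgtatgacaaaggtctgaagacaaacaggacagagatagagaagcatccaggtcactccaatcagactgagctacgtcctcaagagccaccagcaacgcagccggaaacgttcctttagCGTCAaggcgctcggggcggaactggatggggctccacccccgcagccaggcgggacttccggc
Mapk8ip2: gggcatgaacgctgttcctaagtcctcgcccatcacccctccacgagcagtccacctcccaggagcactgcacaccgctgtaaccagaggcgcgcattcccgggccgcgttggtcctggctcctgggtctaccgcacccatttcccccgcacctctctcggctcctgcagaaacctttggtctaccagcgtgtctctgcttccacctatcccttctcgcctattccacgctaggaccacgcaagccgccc
Map2k7: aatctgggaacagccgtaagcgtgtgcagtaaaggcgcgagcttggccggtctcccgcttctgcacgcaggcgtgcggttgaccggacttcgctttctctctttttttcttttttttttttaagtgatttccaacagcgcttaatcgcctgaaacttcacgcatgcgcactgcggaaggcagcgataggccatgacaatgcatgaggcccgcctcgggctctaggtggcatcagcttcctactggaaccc
The Mapk10 run held a whole cyclic AMP response element beginning 29 bases before the start, a motif present in 1.55% of the 32851 promoters of the table. Mapk8ip3 held the core alone, beginning 64 bases before its start, and the core, alone or inside the whole element, occurred in 17.8% of all promoters. The second entry of Map2k7 held TGATTCA beginning 92 bases before its start, a match to the AP-1-like pattern with T in the centre, not the usual C or G. That pattern, with any base in the centre, occurred in 6.75% of all promoters. Among genes that were not called, cores were found in the first entries of Mapk8 (2 matches), Mapk9 and Map2k4. No motif was thus matched in all 4 genes that fell, and a match is a description of letters, not of binding.

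The other genes of the pathway were read from 7 lists of which 97 of 98 genes could be tested. Of these 97, 10 were lower and 9 higher, beside the 5.93% and 8.02% of all genes, and their median log2 fold change was 0.028. Directions given for these lists are those of the first scaling. With libraries scaled to the ganglion cell markers, 80 of the 97 were higher, beside 72.3% of all genes, and the genes said to fall below had log2 fold changes above 0. All 19 calls kept their direction when a library was left out, and each was lost in 2 to 5 of the 6 omissions. By edgeR 10 pathway genes were called when naive replicate 2 was left out, and 13, 3 and 22 when SOHU replicates 1, 2 and 3 were left out in turn. Without naive replicate 1 or 3 edgeR and limma-voom called 0 of the 97, while DESeq2 called 15 and 18 pathway genes, and 29 and 32 had an unadjusted p under 0.05 by edgeR.

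Among 20 other kinases that can activate JNK, Map3k5 and Map4k4 rose and Taok3 fell, with a median of 0.11 over the list. Map3k5 encodes ASK1, a kinase activated by oxidative stress, and had 22.2, 25.8 and 21.0 CPM in naive and 49.0, 39.6 and 38.2 CPM in SOHU (log2 fold change 0.88, SE 0.16, edgeR adjusted p = 0.0140). Map4k4, the gene of a kinase reported to act upstream of DLK in neurons, rose from 8.47 to 10.6 CPM in naive to 15.6 to 21.3 CPM in SOHU (0.99). Taok3, the gene of a TAO kinase that acts on MAP kinase kinases, had 91.8 to 121 CPM in naive and 63.6 to 81.5 CPM in SOHU (-0.58). All 3 were without overlap between groups, where 19.3% of all genes were separated with SOHU higher and 19.7% with SOHU lower. They were named for a small p, which makes such separation likely. Tnik, the gene of a kinase related to that of Map4k4, had a value of -0.42 and did not pass (edgeR adjusted p = 0.0625).

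The list of genes for turnover, palmitoylation and folding of DLK held 10 genes, of which Hsp90aa1 and Cdc37 fell. Hsp90aa1 encodes an HSP90 chaperone and Cdc37 the co-chaperone that brings kinases to it. Hsp90aa1 had 1347, 1377 and 1371 CPM in naive and 938, 988 and 1040 CPM in SOHU, with narrow and separate groups (log2 fold change -0.47, SE 0.12, edgeR adjusted p = 0.0380), and the call was lost in 5 of 6 omissions (all but that of SOHU replicate 3, adjusted p up to 0.128). Cdc37 had 212 to 248 CPM in naive and 132 to 189 CPM in SOHU (-0.54). Hsp90ab1 (-0.38, edgeR adjusted p = 0.0896) and Fbxo45, a partner of the ubiquitin ligase that degrades DLK (-0.37, edgeR adjusted p = 0.138), did not pass, and the median of the list was -0.20.

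Of 11 other scaffolds and adaptors tested, Flna rose from 18.7 to 32.4 CPM in naive to 50.8 to 63.9 CPM in SOHU (1.19) and Bcl10 from 24.4 to 27.7 CPM to 32.3 to 61.0 CPM (0.86). Flna encodes filamin A, an actin crosslinker, and Bcl10 an adaptor of immune receptors, and neither gene is particular to neurons. The arrestin genes Arrb1 (-0.37) and Arrb2 (-0.35) did not pass, and the median was 0.07. In a list of 10 phosphatase genes linked to the JNK pathway, not all of them shown to act on JNK, Dusp16 was called higher. It had 29.4, 35.1 and 29.8 CPM in naive and 57.3, 67.4 and 61.7 CPM in SOHU (0.98, SE 0.14, edgeR adjusted p = 0.00993). Dusp1 moved the other way, from 105 to 124 CPM to 57.8 to 77.1 CPM (-0.84, SE 0.15, edgeR adjusted p = 0.0139). Dusp16 rose and Dusp1 fell with wide gaps between the groups, while Dusp8 (-0.45) and Ppm1a (-0.35) did not pass, and the median of the list was -0.27.

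Of 18 JNK substrates and downstream transcription factors 4 fell, and these were Klc1 (-0.98), Stmn2 (-1.02), Map1b (-0.72) and Mapt (-0.86). They encode a kinesin light chain, stathmin-2, MAP1B and tau, proteins of microtubules and their transport in axons, and Stmn2 is also among the ganglion cell markers. Stmn2 had 577, 392 and 434 CPM in naive and 192, 213 and 286 CPM in SOHU, again highest in naive replicate 1 and SOHU replicate 3. The transcription factor genes did not pass. Jun, the gene of the main nuclear target, had 38.7, 53.0 and 37.7 CPM in naive and 57.8, 50.4 and 49.1 CPM in SOHU, so that the groups overlapped (log2 fold change 0.28, SE 0.17, edgeR adjusted p = 0.282). The values were -0.20 for Atf2, -0.40 for Mef2a, -0.25 for Sox11 and 0.41 for Atf3, whose naive replicate 2 (15.7 CPM) was above all SOHU libraries. Junb (0.42), Jund (0.33) and Elk4 (0.52) did not pass either (edgeR adjusted p = 0.132, 0.159 and 0.0857). Their SOHU libraries lay wholly above their naive ones. Of the 18 genes, 3 were separated with SOHU higher and 9 with SOHU lower, beside 19.3 and 19.7% of all genes. The median over the 18 was -0.22.

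In a list of 16 genes known to respond to nerve injury in a DLK-dependent way, Sprr1a and Gadd45a rose and Gap43 fell. Sprr1a, a gene linked to axon regrowth, was scarce, at 0.616, 1.37 and 0.486 CPM in naive and 3.03, 5.11 and 2.93 CPM in SOHU (log2 fold change 2.15, SE 0.44, edgeR adjusted p = 0.0174). Gadd45a, a stress gene, had 18.8 to 20.9 CPM in naive and 25.5 to 53.8 CPM in SOHU (0.95), with 19.1% of its exon bases also exon of a gene on the opposite strand. Gap43, a growth cone protein gene, had 247, 158 and 173 CPM in naive and 110.5, 124 and 126 CPM in SOHU (-0.68, SE 0.18, edgeR adjusted p = 0.0334), and the call was lost in 4 of 6 omissions (naive replicates 1 and 3 and SOHU replicates 1 and 2, adjusted p up to 0.127). Bcl2l11, which encodes the pro-apoptotic protein BIM, had a value of 0.73 and did not pass (edgeR adjusted p = 0.0555), and Ddit3 one of -0.20. The median of the list was 0.47, the highest of the 7.

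**Figure D5:**
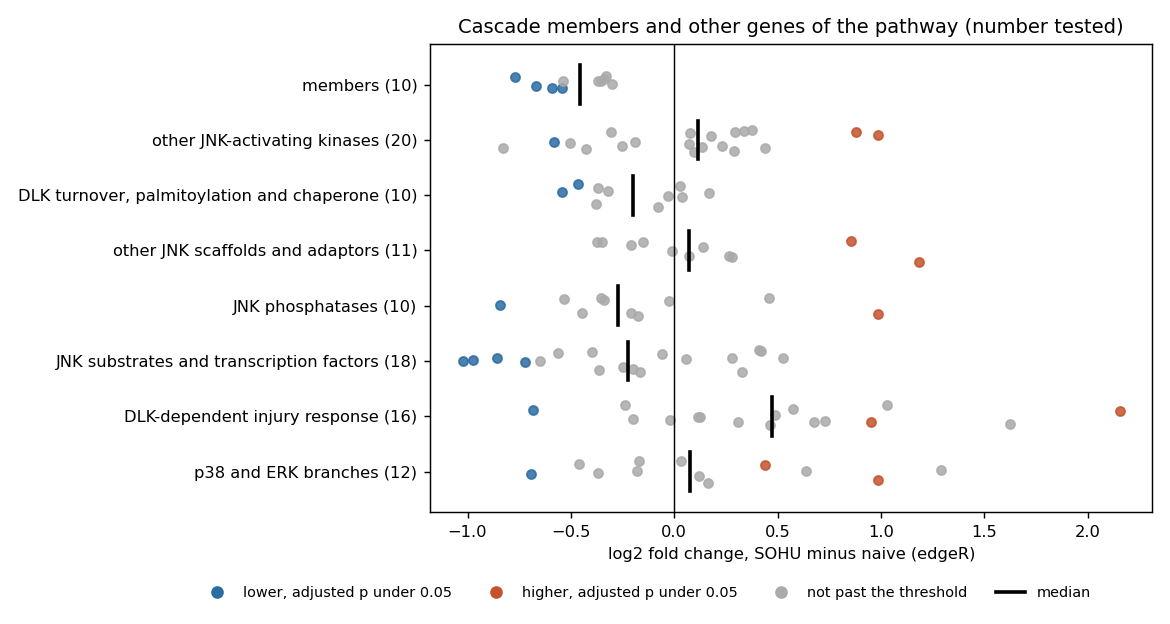
Log2 fold change (SOHU minus naive, edgeR) of the cascade genes and of the genes of 6 lists of partners, targets and responses plus the p38 and ERK branches, 1 point a gene, with the number tested beside each name. Vertical bars are medians, from -0.45 for the cascade to 0.47 for the injury response; blue and orange points passed the test, and with libraries scaled to ganglion cell markers the blue ones have values above 0.

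Genes whose pattern over the 6 libraries was most like that of Map3k12 and Mapk10 were found by the root mean square difference of log2 CPM, each gene centred on its own mean, among 10442 genes. For Map3k12 these were Gak (0.017), Ipo9 (0.044), Mllt1 (0.044), Kat7 (0.051) and Clcn7 (0.051), beside a median distance of 0.333 over all candidates. For Mapk10 they were Maneal (0.036), Kif1a (0.048), Srsf12 (0.050), Ntm (0.053) and Camkk1 (0.057), beside a median of 0.424. Kif1a encodes a motor protein of axonal transport and Ntm a cell adhesion molecule of neurons. Ntm was called lower (log2 fold change -0.75, edgeR adjusted p = 0.0266), and the other 9 were not called. The 6 points are the same libraries for every gene, and the distances carry no test.

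Markers of further cell types moved between the groups as well. Of 12 microglia and macrophage markers tested 5 were called higher (Tyrobp by 3.06 and Lyz2 by 2.73 in log2), beside 8.02% of all genes. In this list 0 markers had a log2 fold change below 0, and the summed share was 0.000839 to 0.00381% in naive and 0.00539 to 0.0135% in SOHU. Vascular markers were called higher for 3 of 7 tested (Kdr by 1.32 and Flt1 by 1.10), with shares of 0.0350 to 0.0411% and 0.0777 to 0.101%. Of the 7, 1 had a log2 fold change below 0. Amacrine and horizontal cell markers were called lower for 5 of 13 (Calb2 by -1.30 and Calb1 by -0.73), beside 5.93% of all genes, with shares of 0.416 to 0.470% and 0.176 to 0.274%. All 13 had a log2 fold change below 0, with a median of -0.74. The SOHU libraries lay wholly below the naive ones for 10 of the 13, beside 19.7% of all genes. The medians of the bipolar, rod and cone marker lists were -0.50, 0.05 and 0.04. The part of these cell types in the values of the cascade genes was not tested.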

How the data were processed

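RNA pulled down from retina was sequenced in 3 naive and 3 SOHU libraries, grouped by their labelled condition. The authors deposited unscaled counts of reads by gene, both as 6 single files and as a joint table with equal columns. Tools named in the submitters' processing notes are featureCounts, HISAT2 and HISAT, Trim Galore, MultiQC and bcl2fastq 2.17, with mm10 as the build. Order, settings, annotation release, strand use and the handling of multiply aligned reads were not given in the sources read here. Of 55335 genes, 55154 had a symbol in GENCODE M21, matched on the Ensembl identifier.

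The filter filterByExpr kept 17687 genes, with 99.8% or more of each library's reads. After TMM scaling (factors 0.943 to 1.04) the groups were compared in R 4.3.3 with edgeR 4.0.16 (quasi-likelihood, robust), with group as the only term and Benjamini-Hochberg adjustment over all genes (threshold 0.05). The biological coefficient of variation was 22.3%, and the number of libraries, more than depth, limits the precision: within a group, pairs of libraries differed with a chi-square of 12.6 to 79.0 per degree of freedom, so none was a copy of another. Ratios inside a library used a prior count of 0.5 and two-sided exact permutation tests (scipy 1.17.1). Alternatives were DESeq2 1.42.0, its size factors, limma-voom (limma 3.58.1), no filter, a replicate block, scaling to ganglion cell markers and leaving out each library.

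The 10 genes, the 7 pathway lists and the 8 cell type lists were chosen with earlier results of these data known. Named were all 10 genes, up to 4 genes of each pathway list and up to 2 of each cell type list with the smallest p, and the 5 genes nearest in pattern to Map3k12 and to Mapk10 whose mean log2 CPM was 3 or more. Jun, Atf2, Mef2a, Sox11, Atf3 and Ddit3 were named for their role after their values were seen. A gene that this rule would name is not reported here. List genes Sh3rf2, Tmem119, Cdh5, Cspg4 and Pecam1 did not pass the filter. Among the pathway genes named, exon bases were shared with a gene of at least 10% of their reads per base by Gadd45a (19.1%), Junb (7.52%), Ddit3 (3.97%), Mef2a (2.06%), Elk4 (1.31%) and Dusp1 (0.332%), in each case on the opposite strand.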

Additional observations from a re-analysis of the deposited data

How the results depend on the processing

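The main limit is the number of libraries. With DESeq2 size factors, DESeq2, limma-voom or no filter, the same 4 cascade genes were called lower as with edgeR, and DESeq2 called 14 pathway genes higher in place of 9, with 11.4% of all genes called higher in place of 8.02%. Deviations of same-numbered libraries had correlations of 0.16, 0.25 and 0.0040, beside -0.28 to 0.095 for libraries with different numbers. Replicates 1 and 2 thus lay above that range and replicate 3 inside it. These values do not settle whether the replicate numbers pair samples. With the replicate block 3 cascade genes were called lower (Map2k7 had an adjusted p of 0.0725) beside 5.04% of all genes, 8 pathway genes were lower and 8 higher (Hsp90aa1, Gap43 and Mapk3 were lost, with adjusted p of 0.0815, 0.0546 and 0.0742), and the cascade's median was -0.47. Leaving out 1 library gave 0 to 4 cascade genes called lower, 0 to 11 pathway genes lower and 0 to 11 higher, and a cascade median of -0.56 to -0.41. In these omissions the Mapk9 to Mapk8 ratio difference ranged from -0.18 to 0.28 (-0.011 without naive replicate 2, -0.18 without SOHU replicate 1), and that of Map3k12 to Map3k13 from -0.17 (without SOHU replicate 1) to 0.53. Scaled to the ganglion cell markers, 0 cascade genes were lower (also 0 at an unadjusted p under 0.05 by edgeR, the one tool run there) and 5 higher, with a median of 0.67, and of the pathway genes 0 were lower and 80 higher, beside 72.3% of all genes higher. That scaling raised the median of all genes to 1.15, and the cascade's median lay 0.47 below it, as without that scaling. This distance is nearly fixed, because a scaling moves all genes nearly alike. The log2 fold changes that were below 0 before became 0.77 for Map3k12, 0.59 for Map3k13, 0.78 for Map2k4, 0.59 for Map2k7, 0.82 for Mapk8, 0.84 for Mapk9, 0.45 for Mapk10, 0.76 for Mapk8ip1, 0.35 for Mapk8ip2 and 0.55 for Mapk8ip3. In the pathway lists they became 0.54 for Taok3, 0.72 for Tnik, 0.67 for Hsp90aa1, 0.60 for Cdc37, 0.77 for Hsp90ab1, 0.78 for Fbxo45, 0.80 for Arrb1, 0.81 for Arrb2, 0.28 for Dusp1, 0.69 for Dusp8 and 0.78 for Ppm1a. They became 0.16 for Klc1, 0.13 for Stmn2, 0.44 for Map1b, 0.26 for Mapt, 0.51 for Gap43, 0.44 for Mapk12, 0.94 for Atf2, 0.75 for Mef2a, 0.89 for Sox11 and 0.90 for Ddit3.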

Other observations

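The p38 and ERK branches, which run beside the JNK cascade and share MKK4 with it in part, were read from a list of 12 genes. Map2k3, the gene of MKK3, an activator of p38, rose from 18.5, 22.2 and 27.2 CPM in naive to 52.3, 39.1 and 43.0 CPM in SOHU (log2 fold change 0.98, SE 0.18, edgeR adjusted p = 0.0147), a call lost without naive replicate 1, 2 or 3 (adjusted p up to 0.0803). Mapk3, the gene of ERK1, rose from 119 to 127 CPM to 157 to 174 CPM (0.44, edgeR adjusted p = 0.0377), a call lost without the low-count filter (adjusted p = 0.0791) and without naive replicate 1, 2 or 3 or SOHU replicate 2 (up to 0.157). Mapk12, a p38 gene, fell from 57.0 to 77.8 CPM to 36.9 to 52.8 CPM (-0.69, edgeR adjusted p = 0.0363), a call lost in 5 of 6 omissions (all but that of SOHU replicate 3). In all 3 genes the groups did not overlap, beside 19.3% of all genes with SOHU higher and 19.7% with SOHU lower. Genes named for a small p are likely to be separated in this way. Mapk13, another p38 gene, had 1.77, 4.86 and 4.29 CPM in naive and 10.8, 10.5 and 5.41 CPM in SOHU, without overlap, and did not pass (1.29, SE 0.39, edgeR adjusted p = 0.0562). The median of the list was 0.075. Scaled to the ganglion cell markers, the value of Mapk12 was above 0.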
